A study of Mus musculus with 2 samples.

Results

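The genes described here mark the primed epiblast (Fgf5, Otx2) and the neural ectoderm (Sox1, Sox3, Pax6, Nes, Zic1, Zic2, Hes5, Olig2). They are 10 of the 20823 genes that could be named on the arrays, and they were chosen by name, through the RefSeq accession that the array files give for each probe. Earlier results of these data were known when they were chosen. All 10 had a probe, 13 probes in all, each printed as 1 spot. Fgf5 encodes a secreted growth factor and Nes an intermediate filament protein, while all the others encode transcription factors of the Sox, Zic, Otx, Pax or basic helix-loop-helix kind.

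Mouse ES cells cultured with LIF correspond to the naive, pre-implantation epiblast. When they leave this state they first acquire a primed, post-implantation identity, in which Otx2 and Fgf5 are typical genes, and, in the absence of other signals, they then take on a neural ectoderm identity, in which Sox1 is the classical early marker and Pax6, Nes, Hes5, the Zic genes and later Olig2 follow. Baf53a and Baf53b are actin-related subunits of the BAF chromatin remodeling complex. Baf53b is the form used in neurons, while Baf53a belongs to the complex of ES cells and neural progenitors, so that genes of the neural path are of interest in ES cells that were given Baf53b.

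Both samples were Baf53a-deficient ES cells, derived from E14 ES cells. They came from 1 clone, with deletions of 23 bp and 7 bp in the alleles of Baf53a, whose survival depended on a resistant Baf53a cDNA that Tet switches off. The cells received a vector for Baf53a or for Baf53b, and after 48 h they were kept for 6 days in 1 μg/mL Tet in serum medium with LIF. The groups are named Baf53a-expressing and Baf53b-expressing cells, with 1 array of each and no untransfected or untreated array, so that no test was possible and no difference has a replicate check. Differences are given as Baf53b- minus Baf53a-expressing cells throughout, on a log2 scale on which the 75th percentile of each array is 0. Signals are given before this scaling, so that their ratio departs slightly from the difference beside them. RNA came from whole cultures, in which fewer cells of a type and less RNA per cell cannot be told apart.

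The arrays shared a slide and a scan. Of 39411 probes with a usable spot, 29247 were well above background on both arrays, and 75.2% and 76.4% were so on the array of Baf53a- and of Baf53b-expressing cells. Detection began at signals of 8.45 and 9.75, in the arbitrary units of the processed signal, which are the lowest values of a probe well above background. As the labels say, Actl6b, the gene for Baf53b, was at least 14.5-fold higher on the array of Baf53b-expressing cells, and on the other array it was not well above background. Actl6a, the gene for Baf53a, stood at signals of 3806 and 3600, a difference of -0.04, so that its probe did not separate the arrays. Where this probe lies relative to the deletions and to the Baf53a cDNA was not analysed here, and RNA of the mutated alleles and of the vectors cannot be told apart by it. These arrays therefore do not show the loss of Baf53a in Baf53b-expressing cells, which is taken from the labels and the deletions. The paper reports by Western blot that Tet repressed Baf53a protein in the clone without these vectors. All 11 ES cell markers examined, among them Pou5f1, Nanog and Zfp42, were well above background on both arrays, with a median difference of -0.04.

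The start sites of these genes were also compared in sequence. RefSeq promoter windows of GRCm38.p6, from 250 bases before to 50 bases after a start site, matched 8 of the 10 genes with 12 windows. Sox3 and Zic2 had no window in the table used. The windows held a median of 18 CpG dinucleotides (6 to 41), against a median of 7 over 32851 windows of all genes, and 11 of the 12 lay above that median. The upper quartile of all windows was 20, and Otx2 and Pax6 gave more than 1 of the 12 windows each. The GC content of the member windows ran from 41.7% to 72.7%, against a median of 52.7% over all windows. The highest CpG counts were those of Hes5 (41), Sox1 (37) and Zic1 (31), and the lowest were in 3 windows of Otx2 (6, 8 and 11), followed at 16 by the fourth window of Otx2 and 1 of Pax6. The 150 bases before the start site are shown for Fgf5 and Zic1, the genes with the widest differences of a single probe between the arrays, with each CpG in capitals. That of Fgf5 lies at chr5:98254034-98254183 on the plus strand and that of Zic1 at chr9:91365769-91365918 on the minus strand.
Fgf5: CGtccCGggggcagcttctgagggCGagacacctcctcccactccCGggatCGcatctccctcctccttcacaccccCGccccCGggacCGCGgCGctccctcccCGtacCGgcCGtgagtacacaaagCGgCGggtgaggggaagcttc
Zic1: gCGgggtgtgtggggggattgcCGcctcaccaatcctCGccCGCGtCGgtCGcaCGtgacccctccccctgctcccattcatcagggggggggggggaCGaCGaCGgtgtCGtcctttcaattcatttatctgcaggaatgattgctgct
These stretches hold 15 and 12 CpG dinucleotides. Short motifs were also searched on both strands of the windows. The octamer ATGCAAAT, bound by POU factors, was found in Sox1 only among the members and in 1.74% of all windows. The Sox motif CATTGT was found in the windows of Hes5 and Olig2 and in 12.6% of all windows. The Otx motif TAATCC was found in 1 window of Otx2 itself and in 7.06% of all windows. TATAAA was found in Fgf5, Olig2 and 1 window of Otx2, against 13.6% of all windows. The E-box CANNTG, a class of site for basic helix-loop-helix factors, was found in 6 of the 12 windows, of Hes5, Otx2, Pax6 and Zic1, and in 72.3% of all windows.

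Every one of the 10 genes was detected in both cultures. Of the 13 probes, 12 were measurable on both arrays, which means well above background there, and a further probe of Pax6 was below that level on each. None of the 10 genes was 2-fold apart, where 0.137% of the 29247 probes measured were at least 2-fold higher in Baf53b-expressing cells and 0.116% at least 2-fold lower. The differences ran from -0.13 for Olig2 to 0.50 for Fgf5, with a median of 0.02. For 9 of the genes the difference was under 0.2 in size, while the median size over all probes measured was 0.10. Differences this small were thus common on the array. In Baf53b-expressing cells 6 genes were higher and 4 lower, a share of 60%, while 49.7% of all probes were higher. Under 4 other settings, which were cyclic loess, quantile normalization, centring on the median and the normexp background correction, and also with the brightest probe of a gene alone, the members split into 4 higher and 6 lower. Of all probes, 49.4%, 47.9%, 37.5% and 47.3% were higher under those 4 settings, in the order named. Without the filter on dim probes 5 members were higher, against 46.4% of all probes. No direction is therefore settled for the genes as a group.

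**Figure D1:**
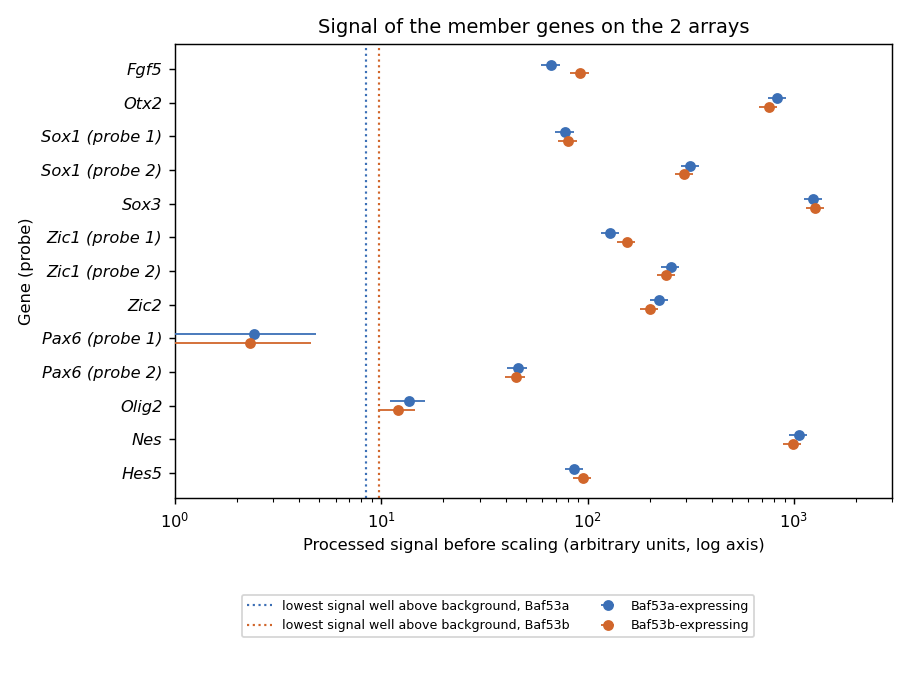
Processed signal (arbitrary units, log axis) of the 13 probes of the 10 genes on the array of Baf53a-expressing (blue) and of Baf53b-expressing (orange) cells, with bars for the error that the extraction software gives each spot and dotted lines at the lowest signal well above background on each array. The 2 points of a probe lie close together for each gene, with the widest gap at Fgf5, while probe 1 of Pax6 lies under both dotted lines with bars that run off the axis and Olig2 lies just above them.

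Several measures of error were set beside the differences. The extraction software gives every spot an error, which came to 0.20 to 0.23 for the log2 difference of most member probes and to 0.40 for the dim Olig2 probe. Another measure was the SD between spots of probes of like brightness that are printed several times, which covers the spots of an array only. It was 0.27 in the dimmest of 5 groups and 0.0664 to 0.12 in the groups of the brighter members. This SD was narrower than the error from the software except for Pax6 (0.27 against 0.23). The widest was the spread of the 1000 probes nearest in brightness, which holds whatever separated these 2 cultures and arrays. Of the 12 probes measured, 6 differed by less than the SD between spots, 10 by less than the error from the software, and 11 lay inside the middle 95% of probes of like brightness. The 6 beyond the SD between spots were those of Fgf5, Otx2, Sox3, Zic2 and Hes5 and the dimmer one of Zic1. None of these measures stands in for replicate cultures.

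Fgf5, the growth factor of the primed epiblast, gave a signal of 66.7 ± 6.99 in Baf53a-expressing cells and 91.7 ± 9.39 in Baf53b-expressing cells, where ± is the error from the software for 1 spot. On the scaled arrays it was 1.42-fold higher in Baf53b-expressing cells, the widest difference among the members. The log2 difference of 0.50 was 2.38 times its error of 0.21. The middle 95% of the probes nearest in brightness ran from -0.32 to 0.46 with a median of 0.06, and 22 of these 1000 probes were as high as Fgf5 or higher. It was the 1 member probe outside that range. Its direction was the same in all 10 settings in which it was measured, from 0.29 with normexp to 0.50. Several of these settings leave the value of a gene with 1 probe unchanged or nearly so.
Otx2, a homeodomain factor that acts early in the passage from the naive to the primed state, did not go the same way as Fgf5. Its signals were 830 ± 83.0 and 753 ± 75.3 in the same order, which is a log2 difference of -0.10 with an error of 0.20. The 2 primed epiblast members therefore lay on opposite sides of 0, and only Fgf5 lay beyond the error from the software, while both lay beyond the SD between spots.

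Sox1 and Sox3 encode SoxB1 factors of neural progenitors, and Sox3 is already expressed in the epiblast. Of the 2 Sox1 probes, the dimmer stood at signals of 77.3 and 80.0 in Baf53a- and Baf53b-expressing cells, and the brighter at 313 and 293. Their log2 differences, 0.09 and -0.06, had opposite signs and were both under their errors of 0.21 and 0.20. The mean of both probes, 0.02, was below 0 under each of the 4 settings named above, and so was the brighter probe alone. Sox3 stood at signals of 1236 ± 124 and 1265 ± 127, a log2 difference of 0.08 with an error of 0.20. Both genes lay within the software's error, while Sox3, though not Sox1, lay beyond the SD between spots of 0.0664.

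Zic1 and Zic2 encode zinc finger factors, of which Zic2 is expressed from the epiblast onward and Zic1 in the neural plate. The 2 probes of Zic1 differed from each other, and their mean was 0.14. The first exceeded its error, with signals of 129 ± 13.2 and 154 ± 15.6 and a log2 difference of 0.30, which is 1.45 times the error, and 66 of the 1000 probes nearest in brightness were as high or higher. The other gave signals of 252 ± 25.3 and 241 ± 24.1, a difference of -0.03. The gap of 0.33 between the probes can be set beside 4212 genes with at least 2 probes measured, of which 12.3% had a gap of 0.3 or more between the first pair by probe name, with a median gap of 0.10. Zic2 stood at signals of 222 ± 22.4 and 199.99 ± 20.1, a log2 difference of -0.11 with an error of 0.21. The mean of Zic1 and the value of Zic2 had opposite signs, while the brighter probe of Zic1 had the sign of Zic2.

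Pax6 and Olig2 encode factors that pattern the neural tube, Pax6 in the forebrain and spinal cord and Olig2 in the progenitors of motor neurons and oligodendrocytes. The Pax6 probe that was measured gave signals of 45.8 ± 5.10 and 44.9 ± 4.98, a log2 difference of 0.01 that was below 0 under those 4 settings and without the filter on dim probes. The Pax6 probe below background gave 2.42 and 2.30. Olig2 was the dimmest member measured, at signals of 13.6 ± 2.59 and 12.1 ± 2.42, which on the scaled arrays is 1.61-fold and 1.24-fold above the lowest signal well above background. Its log2 difference of -0.13 lay well within its error of 0.40, so that a moderate difference in Olig2 could not have been resolved at this signal.

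Nes and Hes5 are genes of neural progenitors, and Hes5 is a direct target of Notch signaling. Nes gave signals of 1052 ± 105 and 985 ± 98.6, a log2 difference of -0.05 with an error of 0.20. Hes5 gave 86.3 ± 8.89 and 94.6 ± 9.68, a log2 difference of 0.17 with an error of 0.21. Hes5 was higher and Nes lower in Baf53b-expressing cells in every setting in which each was measured, and both differences were smaller than the error from the software. That of Hes5 exceeded the SD between spots of 0.12, and that of Nes did not exceed its SD of 0.0664.

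**Figure D2:**
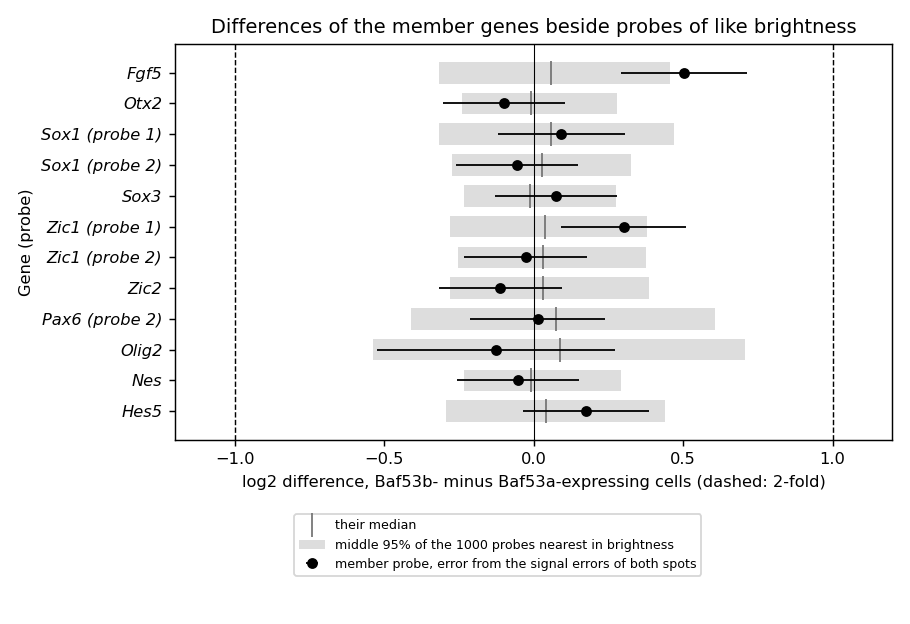
Log2 difference (Baf53b- minus Baf53a-expressing cells) of the 12 member probes measured on both arrays, with bars for the error from both spots, grey bars for the middle 95% of the 1000 probes nearest in brightness, ticks for their median and dashed lines at 2-fold. Fgf5, at 0.50, is the 1 probe outside its grey bar, which ends at 0.46.

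The place of the genes on the whole array bears on these values, since the spread and the centre of the differences depended on brightness. When the probes were divided by brightness into 5 equal groups, the dimmest had a median of 0.10 with 64.6% of its probes higher in Baf53b-expressing cells, and the brightest a median of -0.06 with 24.2% higher. No member probe lay in the brightest group. Pax6 and Olig2 lay in the dimmest, and Fgf5, Hes5, a probe of Sox1 and a probe of Zic1 in the next, where the median of all probes was 0.05. Cyclic loess, which removes such a trend, left Fgf5 at 0.43, Zic1 at 0.09 and Hes5 at 0.11. Its part in the differences of these genes was not otherwise tested.

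**Figure D3:**
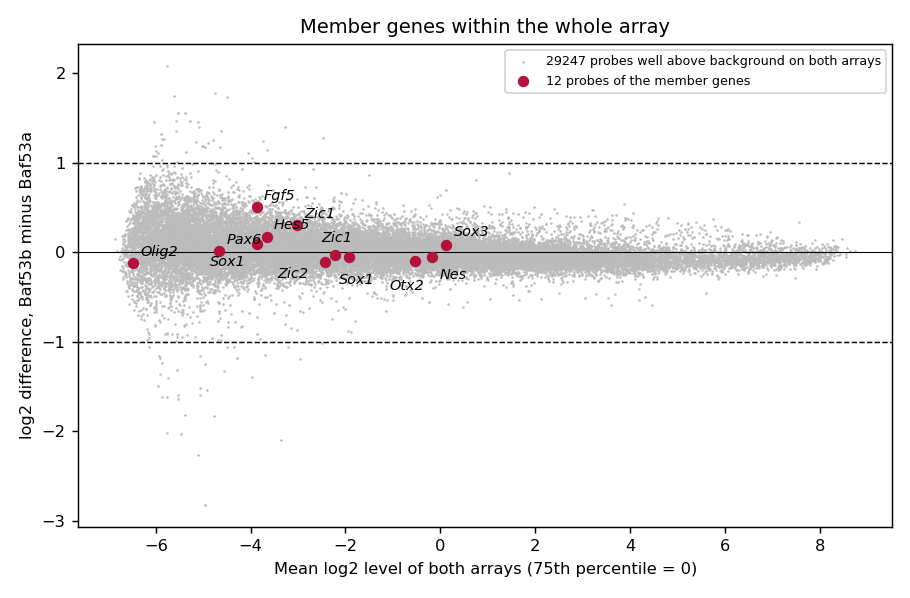
Log2 difference against mean log2 level for the 29247 probes detected on both arrays (grey), with the 12 member probes in red and dashed lines at 2-fold. The grey cloud narrows from left to right, and all member probes lie between the dashed lines, Fgf5 at 0.50 being the highest.

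Other genes of the same states were examined for comparison. Of 13 further genes linked to the primed epiblast, all were measured on both arrays. In Baf53b-expressing cells 5 were higher and 8 were lower, and none was 2-fold apart. Their median difference was -0.03, against a median of -0.0013 over all probes. The highest was Grhl2, an epithelial transcription factor, at 0.28, and the lowest was Tead2, a Hippo pathway factor, at -0.23, with -0.18 and -0.28 from its 2 probes. The second of these was below the middle 95% of probes of like brightness, which ran from -0.25 to 0.25, and it was the only one of the 17 probes measured outside that range. Pou3f1, a POU factor of the primed epiblast, differed by -0.03, and Dnmt3b, a DNA methyltransferase of the same stage, by 0.05. The difference of Fgf5 was wider than that of any of the 13, but most of these genes were brighter. Fgf5 lay in the group next to the dimmest, which held 2 of the 17 probes, and none lay in the dimmest. The SD of the differences of all probes was 0.21 in that group of Fgf5, and 0.15, 0.12 and 0.11 in the brighter ones.
Of 32 further genes of the neural ectoderm, 29 were measured on both arrays, of which 19 (65.5%) were higher and 10 lower, and none was 2-fold apart. The share of all probes that were higher was 49.7%, and 64.6% in the dimmest group, to which 11 of the 35 probes of these genes belonged, with 9 more in the next. None of the 35 lay outside the middle 95% of probes of like brightness. Their median difference was 0.08, and it was 0.04 with quantile normalization, 0.03 centred on the median, 0.04 with cyclic loess and 0.0087 with normexp. The highest was Dbx1, a homeodomain factor of the spinal cord, at 0.75, from signals of 13.7 and 22.3, where the middle 95% of probes of like brightness ran from -0.61 to 0.79. The lowest was Fabp7, a fatty acid binding protein of radial glia, at -0.35, from signals of 23.01 and 17.6. Sox9, a factor of later neural progenitors and glia, was well above background in Baf53b-expressing cells only. Its signals were 10.6 and 13.7, a ratio of 1.32 on the scaled arrays. Over the whole array 858 probes were well above background in Baf53b-expressing cells only, and 378 in Baf53a-expressing cells only. En1 and Emx2 were not well above background on either array.

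Markers of other cell types that such cultures could hold were listed as well, and none of these genes was 2-fold apart. The counts of higher genes that follow stand beside a share of 49.7% over all probes. All 8 primitive endoderm markers were measured and all 8 stood higher in Baf53b-expressing cells. Of their probes 3 lay in the group next to the dimmest and 5 in the middle group, where the medians of all probes were 0.05 and 0.02. The median of these markers was 0.28, and between 0.20 and 0.31 in the other settings, and single genes ran from 0.08 for Sox7 to 0.40 for Dab2. Foxa2, Lama1 and Sox17 each had a probe above the middle 95% of probes of like brightness, 3 of the 10 probes measured. The summed signals, without scaling, were 25131 and 29964, of which Lama1 gave 22007 and 26327 and the others 3124 and 3637, and none of the 8 was below background. Fgf5 was higher in the same culture, and the part of these cells in its difference was not tested. Of the 7 surface ectoderm markers 3 were higher (median -0.03), with Trp63 highest at 0.38, above its range of -0.23 to 0.23, and Dlx5 lowest at -0.22. The value of Trp63 came from 1 of its 2 probes, and the other was not measurable on both arrays. Their summed signals were 33750 and 40852, and 5207 and 4840 without Trp63. Of 7 mesoderm markers measured 3 were higher (median -0.02), with Eomes highest at 0.25, where 1 of its 2 probes (0.33) was above its range of -0.27 to 0.30, and Mesp1 lowest at -0.21. Mixl1 was not well above background. The summed signals of the measured probes were 6797 and 6072, and 903 and 958 without Kdr. Kdr counted as higher from the mean of its 2 probes, 0.05, while its brighter probe gave 5703 and 4887. With the brightest probe of each gene the median of the mesoderm markers was -0.12. Of 5 fibroblast markers measured 4 were higher (median 0.12), with Dcn highest at 0.37 and Thy1 lowest at -0.15. The summed signals of these 5 were 1619 and 1553, and 725 and 773 without Thy1. Col3a1 was detected in Baf53b-expressing cells only, with signals of 8.73 and 11.3, a ratio of 1.33 on the scaled arrays. Postn was detected on neither array. Among the 11 ES cell markers 3 (27.3%) were higher (summed signals 249007 and 227425), with Sox2 highest at 0.07 and Esrrb lowest at -0.15. Of their 13 probes 10 lay in the brightest group, where 24.2% of all probes were higher. None of the 13 lay outside the middle 95% of probes of like brightness, and the median of these markers was -0.00021 with cyclic loess.

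**Figure D4:**
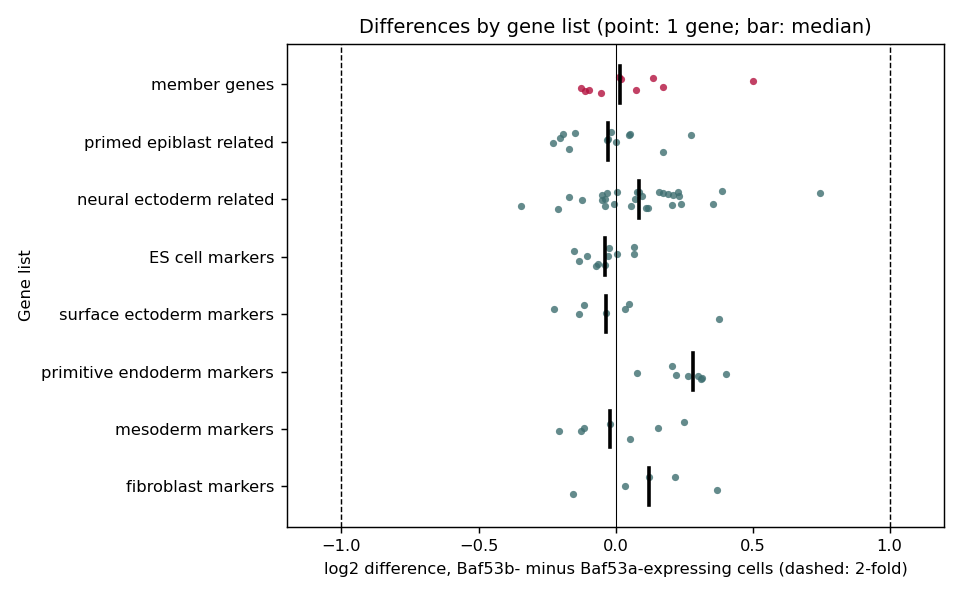
Log2 difference (Baf53b- minus Baf53a-expressing cells) of each gene measured, by list, with a black bar at the median and dashed lines at 2-fold. The member genes (red) centre on 0.02 with Fgf5 apart at 0.50, and all 8 primitive endoderm markers lie above 0.

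The values of the members were recomputed in 10 other ways of processing the arrays. Fgf5 and Hes5 stayed above 0, and Otx2, Nes, Zic2 and Olig2 below 0, in every setting in which they were measured, and Sox3 stayed above 0 between 0.02 and 0.09. Sox1, Pax6 and Zic1 took either sign, Zic1 only when its brighter probe was used alone, which gave -0.03. No member was 2-fold apart in any setting in which it was measured, which for the stricter filter were Otx2, Sox3 and Nes only.

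**Figure D5:**
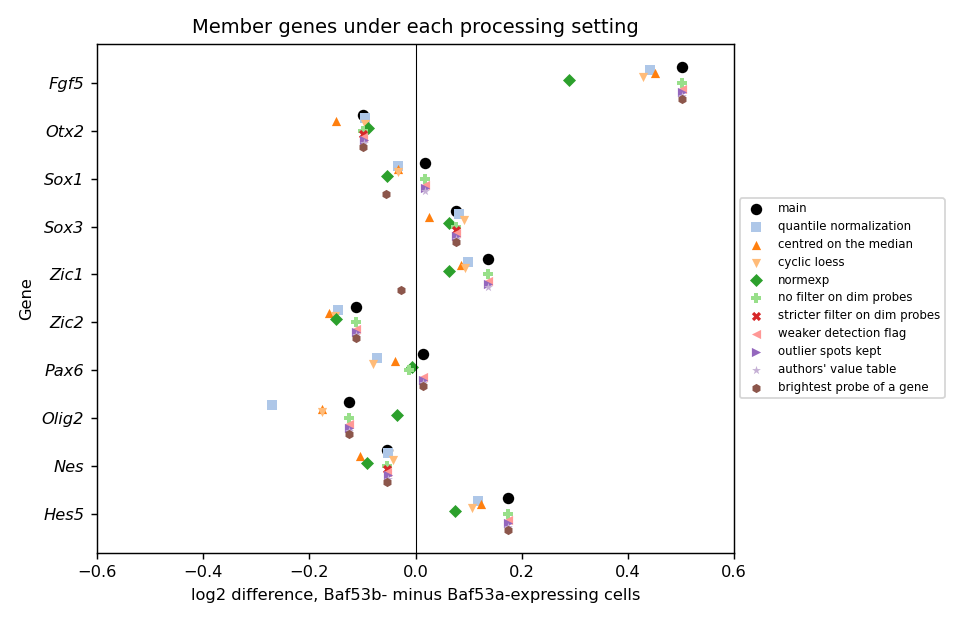
Log2 difference (Baf53b- minus Baf53a-expressing cells) of each member gene under the reported setting (black) and 10 other settings, offset vertically for legibility. Fgf5 lies between 0.29 and 0.50 in all of its points, and Sox1, Pax6 and Zic1 have points on both sides of 0.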

How the data were processed

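RNA of both cultures (0.2 μg each) was hybridised to Agilent mouse arrays of a design annotated on mm9. The authors extracted the scans with Feature Extraction 11.0.1.1 and deposited, per spot, an intensity after background subtraction and spatial detrending, its error and detection flags, without scaling between arrays. They also deposited a table of 30488 values per array, each the ratio of the processed signal to 1 number per array, within 0.1% for all 30479 probes compared. Here outlier spots (173 and 143) were dropped, spots of 1 probe were averaged as log2 values, and each array was shifted to put its 75th percentile (1161 and 1128) at 0. Well above background means that at least 50% of the spots of a probe were flagged so. Several probes of a gene were averaged. Bounds for probes detected on 1 array use, on the other, the higher of the lowest signal well above background and the probe's own. A symbol was found for 27410 probes through RefSeq (GRCm38.p6, for names and promoters). All members, Actl6a and Actl6b were named, and from each list the genes 2-fold apart, the extremes and those seen on 1 array only, with Pou3f1, Dnmt3b, Pou5f1, Nanog, Zfp42, Foxa2, Lama1, Sox17 and Kdr added after their values were seen. The members and lists were chosen with earlier results of these data known. Python 3.11.15, R 4.3.3 and limma 3.58.1 were used, and the steps were tested on simulated data. The number of arrays, 1 per group, limits the precision.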

Additional observations from a re-analysis of the deposited data

How the results depend on the processing

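Alternatives were cyclic loess, quantile normalization and centring on the median. Normexp was run with an offset of 50 on the median signal of the spots, followed by quantile normalization. The others were dim probes filtered more strictly or not at all, a weaker detection flag, outlier spots kept, the brightest probe of a gene and the authors' value table. No paired analysis was possible because each group had 1 array, which also left no replicate to omit. For a gene with 1 probe, the changed filters and flag, the kept outlier spots, the brightest probe and the authors' table could hardly move the value. Of 93 recomputed member differences, these among them, 91 moved by less than the SD between spots of like brightness (0.0664 to 0.27). The exceptions were Fgf5, 0.29 with normexp, and Zic1, -0.0272 from its brightest probe. Fgf5 was 0.44 with quantile normalization alone. The offset of normexp draws dim signals together, but its part was not separated from the other steps of that setting. The median over the members stayed between -0.0529 and 0.0159. With the stricter filter only Otx2, Sox3 and Nes were left, of which 1 was higher, against 37.2% of all probes. The mesoderm and fibroblast markers came down to 1 gene each, at -0.18 and -0.15. The share of all probes at least 2-fold apart, 0.253%, was 0.00684% with normexp, 3.39% with dim probes kept, 2.24% with the weaker flag and 0% with the stricter filter. The changed filters and flag let more or fewer dim probes enter. The split of these probes was 40 higher and 34 lower, against 32 and 53 with quantile normalization and 36 and 46 with cyclic loess, and centring on the median lowered the share of all probes above 0 from 49.7% to 37.5%. Low signal limits what can be said of Olig2, Pax6 and other dim genes.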
